A study of Mus musculus with 8 samples.

Results

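Brown adipose tissue (BAT) RNA-Seq values of 5 genes for ketone body synthesis and use were examined in mice housed at 22 °C or 4 °C and in mice fed a normal chow diet (NCD) or a high-fat diet (HFD). The 5 genes, Slc16a1, Bdh1, Bdh2, Oxct1 and Acat1, were chosen by name for their place in the pathway, and each matched 1 row of the 49452 genes in the table. The values were FPKM, fragment numbers scaled to transcript length and library size, so that levels could be set side by side between genes of different length. All 5 genes had a value above 0 in every one of the 8 libraries.

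All mice were male C57BL/6 animals with no transgene or deletion named in the labels. The 4 groups held 2 libraries each. The 22 °C group (replicates 4 and 7) and the 4 °C group (replicates 2 and 11) came from mice 10 to 12 weeks old, and the 4 °C exposure lasted 24 h in all, of which the last 4 h were without food. Whether the 22 °C mice were also kept without food is not given in the sources used here, so cold and food withdrawal cannot be told apart in this comparison. The NCD group (replicates 6 and 8) and the HFD group (replicates 2 and 6) were 32 weeks old after 28 weeks on their diets, and the study's own text calls the control food a control diet with matched micronutrients. Sources used here do not say that each library was 1 mouse, so p-values measure only the spread between libraries, and with 2 libraries a group that spread is poorly known.

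Ketone bodies, chiefly 3-hydroxybutyrate and acetoacetate, are made from fatty acid derived acetyl-CoA, mainly in liver mitochondria, and are burned by other tissues during fasting and other times of low carbohydrate supply. A monocarboxylate transporter carries them across the cell membrane, BDH1 turns 3-hydroxybutyrate into acetoacetate in the mitochondrion, OXCT1 loads acetoacetate with coenzyme A and the thiolase ACAT1 splits the product into acetyl-CoA. BDH1 and ACAT1 catalyse reversible steps and also serve synthesis. Brown fat is rich in mitochondria and burns several fuels for heat.

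The gene that differed most between temperatures among the 5, Bdh1, has 2 RefSeq start windows, and these are printed because the gene-level FPKM cannot tell which start was used. Each run gives the 250 bases before the annotated start and, as the only capital, the start base itself, on the plus strand of GRCm38.p6, 5′ to 3′. The first window lies at chr16:31422047-31422297 and the second at chr16:31428503-31428753.
Bdh1 start 1: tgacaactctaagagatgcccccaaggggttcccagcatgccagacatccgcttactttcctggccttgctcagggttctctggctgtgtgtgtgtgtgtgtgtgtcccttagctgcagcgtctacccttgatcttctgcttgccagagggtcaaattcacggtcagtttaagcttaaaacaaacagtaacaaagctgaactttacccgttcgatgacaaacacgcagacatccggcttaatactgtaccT
Bdh1 start 2: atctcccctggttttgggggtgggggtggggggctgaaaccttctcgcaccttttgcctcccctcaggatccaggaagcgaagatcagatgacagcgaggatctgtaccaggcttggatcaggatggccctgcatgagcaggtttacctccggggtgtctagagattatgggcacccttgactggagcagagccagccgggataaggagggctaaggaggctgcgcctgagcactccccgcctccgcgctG
The second window lies inside Gm15743, an antisense gene at chr16:31427876-31429776 on the minus strand. Both strands of the 300-base RefSeq windows (250 bases before to 50 after the start) of Bdh1, Bdh2, Oxct1 and Slc16a1, 5 windows in all, were searched for letters of motifs known for nuclear receptors and cAMP-responsive factors. The letters AGGTCA were in 16.3% of 32851 windows of this length, 2 copies of AGGTCA with 1 base of any kind between them in 0.040%, TCAAGGTCA in 0.423%, TGACG in 20.8% and TGACGTCA in 1.79%; the AGGTCA and TGACG matches include those of the longer motifs that contain them. No match was found in the 5 windows, which says only that these letters were absent there.

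Libraries differed in ways other than the temperature or diet named in their labels, and some of these differences ran with the groups. Genes of the X chromosome were listed at 0 in both 22 °C libraries and in NCD replicate 6, as were nearly all mitochondrially encoded genes, and X, Y and mitochondrial genes were therefore left out of the tests. Since both 22 °C libraries and neither 4 °C library had these zeros, whatever led to them and temperature cannot be told apart. In the diet comparison NCD replicate 6 also had a library name that began like those of the temperature groups, whereas the names of NCD replicate 8 and both HFD libraries shared another start. None of the 5 genes lies on those chromosomes. In each group 1 library had over 100 FPKM of the satellite-like gene Gm10800 and the other did not, and these are called satellite-high (22 °C replicate 4, 4 °C replicate 11, NCD replicate 8, HFD replicate 2) and satellite-low. Skeletal muscle markers also differed, with 11 of 12 listed genes in the table (Acta1 was not matched), none of them at 0. Their summed level was 512 and 106 FPKM at 22 °C, 4402 and 1810 FPKM at 4 °C, 550 and 1407 FPKM under NCD and 166 and 14.7 FPKM under HFD. Brown adipocyte markers were present in every library, as the tissue label gives, and Ucp1 ranged from 699 to 6462 FPKM over the 8 libraries and Cidea from 412 to 1116 FPKM. Fewer cells of a type and less RNA per cell cannot be told apart in such bulk samples.

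The first comparison asked how each gene's level in BAT differed after 24 h at 4 °C. Bdh1 rose and was the only one of the 5 genes to pass the threshold, though it entered the test only through its 4 °C values and did not pass with no filter on low values. The threshold was an adjusted p under 0.05 with at least a 2-fold change on the log2(FPKM + 1) scale by limma, with Benjamini-Hochberg adjustment over 17477 genes tested. Across all genes tested 1.44% passed in either direction, 1.22% passed as higher and 1.81% had an adjusted p under 0.05 at any size of change. Of the 5 genes 3 were higher in both 4 °C libraries and none was lower in both, against 37.9% and 20.6% of all genes tested, or 58.5% in either direction. Slc16a1 was about 2-fold higher at 4 °C in the deposited FPKM without passing, and Oxct1, Acat1 and Bdh2 lay near their 22 °C levels.

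**Figure D1:**
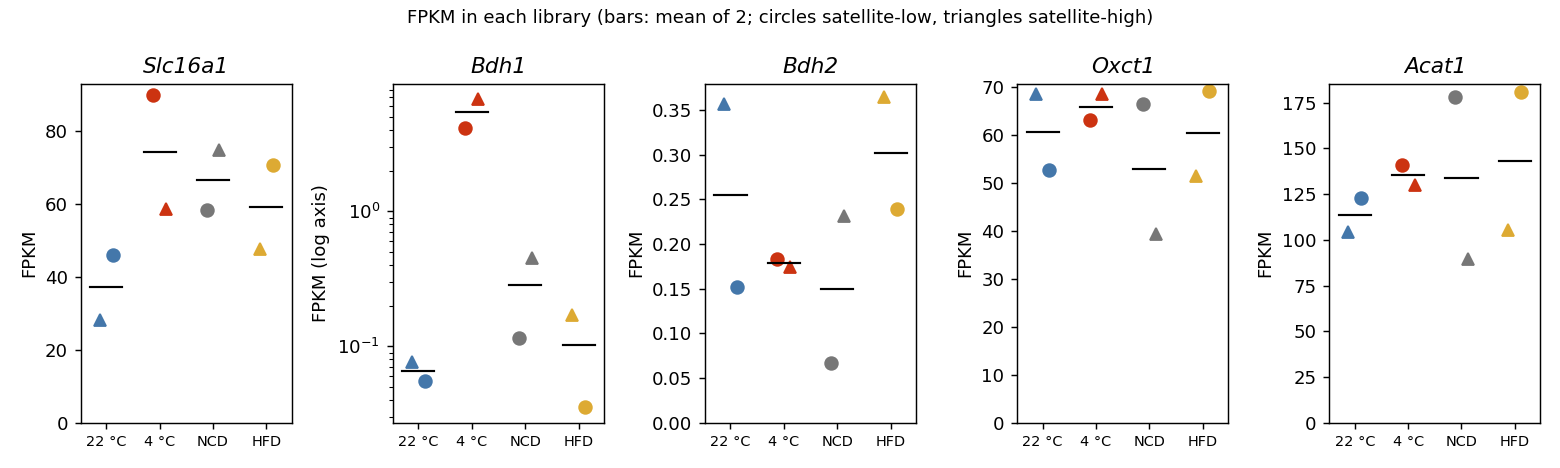
FPKM (y axis, from 0 except for Bdh1, which has a log axis) of each gene in the 8 libraries by group (x axis), with bars at the mean of 2 libraries, circles for satellite-low and triangles for satellite-high libraries. Both 4 °C values of Bdh1, 4.15 and 6.80 FPKM, stand above the other 6 libraries, whereas Oxct1 and Acat1 overlap or nearly overlap across groups.

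Slc16a1 (ENSMUSG00000032902, chr3:104638668-104658462 in GRCm38) encodes MCT1, the transporter that carries lactate, pyruvate and ketone bodies through the plasma membrane. Its level was 28.3 and 45.9 FPKM at 22 °C and 89.9 and 58.7 FPKM at 4 °C. Each 4 °C value exceeded each 22 °C value. The group means were 37.1 ± 12.5 and 74.3 ± 22.1 FPKM (SD, n = 2 each), a ratio of 2.0. The log2(FPKM + 1) difference was 0.99 (SE 0.35, limma adjusted p = 0.167, unadjusted p = 0.0325). The difference was 1.03 between the satellite-high libraries and 0.95 between the satellite-low ones. With library type as a covariate the adjusted p was 0.0463 at the same difference, just under the 2-fold requirement. Other scalings gave smaller differences, 0.73 after median centring, 0.58 under both rescalings and 0.46 after quantile normalization, and leaving out 22 °C replicate 4 gave 0.65. The gap between the groups was narrow, since the lower 4 °C library was only 1.28 times the higher 22 °C library.

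Bdh1 (ENSMUSG00000046598, chr16:31422280-31458901 in GRCm38, plus strand) encodes the mitochondrial 3-hydroxybutyrate dehydrogenase. Its level was 0.0768 and 0.0556 FPKM at 22 °C and 4.15 and 6.80 FPKM at 4 °C. The groups were far apart, with the lower 4 °C library at 54.0 times the higher 22 °C library. Group means were 0.0662 ± 0.0150 and 5.47 ± 1.87 FPKM (SD, n = 2 each), a ratio of 82.7. The log2(FPKM + 1) difference was 2.57 (SE 0.23, limma adjusted p = 0.0218). This scale understates the change of a gene that is so low in 1 group, and with a pseudocount of 0.1 the difference was 5.03. Both 22 °C values lay under the filter of 0.1 FPKM, so a gene kept in this way had to differ.

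The warm level of Bdh1 rested on few fragments. Low FPKM values showed steps that give the worth of 1 fragment in each library, and for the longest Bdh1 transcript of 3162 bases this gave about 28.6 and 20.2 fragments at 22 °C against 1115 and 2147 at 4 °C. The difference was 2.86 between satellite-high libraries and 2.29 between satellite-low libraries. Bdh1 passed the threshold under 12 of 16 alternative settings. Each of those 12 kept a filter that Bdh1 met only through its 4 °C values, so they are not separate support. Of the 12, 2 had a single 22 °C library, taken to vary like the 4 °C pair, and 1, rescaled without Ucp1, took its spread almost wholly from all genes together. It did not pass with no filter on low values (difference 2.57, adjusted p = 0.153), without 4 °C replicate 2 (2.87, adjusted p = 0.119), without 4 °C replicate 11 (2.27, adjusted p = 0.0567) or with the muscle marker score as a covariate (2.45, adjusted p = 0.120). In each of those 4 fits no gene of the whole table passed, and the direction was the same in all 16.

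**Figure D2:**
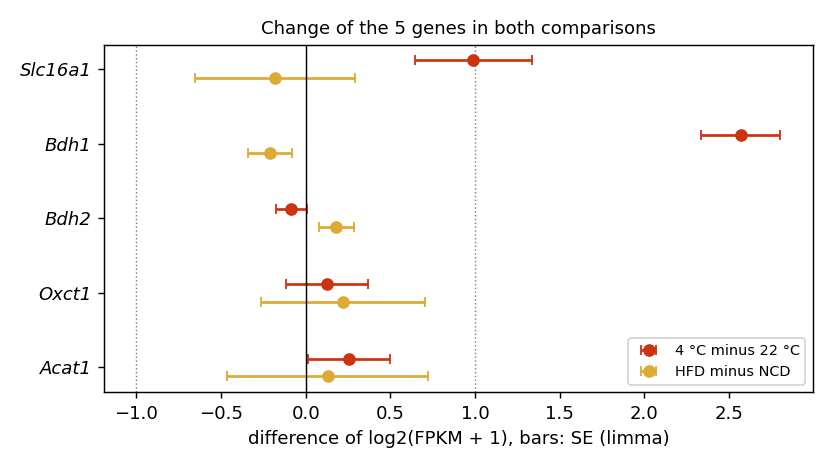
Difference of log2(FPKM + 1) (x axis) for the 5 genes (y axis), 4 °C minus 22 °C in red and HFD minus NCD in yellow, with bars for the standard error from limma and dotted lines at a 2-fold change. Bdh1 at 4 °C (2.57) lies beyond the line, Slc16a1 at 4 °C (0.99) lies at it, and the other 8 differences lie between -0.21 and 0.25.

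Skeletal muscle markers moved with the temperature groups as Bdh1 did. All 11 were higher in both 4 °C libraries, with a median difference of 3.46, though only 1 passed the threshold. The muscle marker score, their mean log2(FPKM + 1), was 4.73 and 2.87 at 22 °C and 7.67 and 6.58 at 4 °C. NCD replicate 8 had a score of 6.45 and a Bdh1 level of 0.453 FPKM. The Bdh1 levels of 4 °C replicates 11 and 2 were 15 and 9.15 times that level. Outside the 4 °C group, NCD replicate 8 was highest in both score and Bdh1, and HFD replicate 6 was lowest in both (1.04 and 0.0353 FPKM). The order between them was not strict, since HFD replicate 2 (score 3.45) exceeded 22 °C replicate 4 (4.73), 0.170 against 0.0768 FPKM. With the score as a covariate over all 8 libraries the Bdh1 difference was 2.45 (SE 0.36), against 2.57 without it. These values set libraries of different age and diet side by side, and the part of muscle RNA in the Bdh1 level was not tested.

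**Figure D3:**
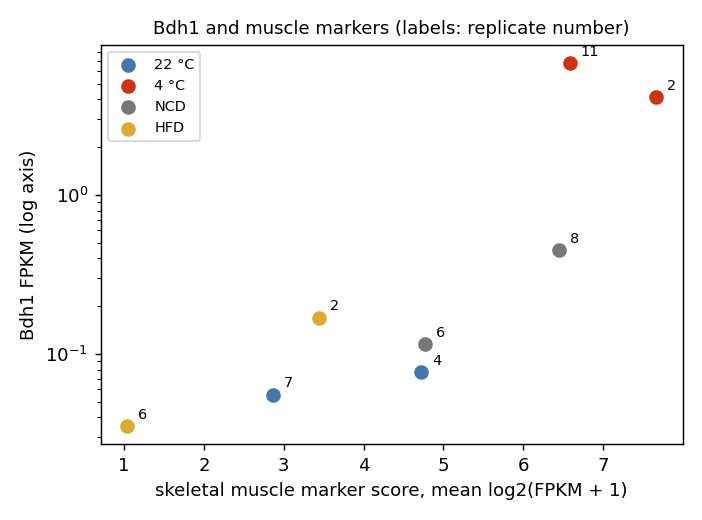
Bdh1 level (y axis, FPKM on a log axis) against the skeletal muscle marker score (x axis, mean log2(FPKM + 1) of 11 genes) for the 8 libraries, coloured by group and labelled with the replicate number. NCD replicate 8 and 4 °C replicate 11 have scores of 6.45 and 6.58 and Bdh1 levels of 0.453 and 6.80 FPKM. Outside the 4 °C group, HFD replicate 6 is lowest in both score (1.04) and Bdh1 (0.0353 FPKM), and NCD replicate 8 is highest in both.

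The antisense gene Gm15743, which overlaps Bdh1, was listed at 0.0231 and 0.00474 FPKM at 22 °C and at 0.326 and 0.437 FPKM at 4 °C. Its level was thus higher in both cold libraries, like that of Bdh1, and far below it there. The libraries were made by a directional protocol, but whether strand was used for the FPKM is not given in the sources used here, so reads of the gene and of its antisense partner may be mixed.

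Bdh2 (ENSMUSG00000028167, chr3:135281221-135304426 in GRCm38) encodes a cytosolic short-chain dehydrogenase that has been described as a second 3-hydroxybutyrate dehydrogenase. Its level was 0.357 and 0.152 FPKM at 22 °C and 0.183 and 0.174 FPKM at 4 °C. The cold values lay between the warm ones, so the groups overlapped. The difference was -0.09 (SE 0.09, limma adjusted p = 0.603). At these levels a library held between 23.6 and 132 fragments for the longest transcript over all 8 libraries. Bdh2 was therefore the higher of the dehydrogenase pair at 22 °C in both libraries and the lower at 4 °C in both, on the FPKM scale.

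Oxct1 (ENSMUSG00000022186, chr15:4026383-4155344 in GRCm38) encodes succinyl-CoA:3-oxoacid CoA transferase, the enzyme that commits acetoacetate to oxidation and that liver lacks. Its level was 68.6 and 52.7 FPKM at 22 °C and 63.1 and 68.5 FPKM at 4 °C. The 4 values overlapped. The difference was 0.13 (SE 0.24, limma adjusted p = 0.787), and it turned negative under each of the 4 other scalings, where it lay between -0.41 and -0.14.

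Acat1 (ENSMUSG00000032047, chr9:53580522-53610382 in GRCm38) encodes the mitochondrial acetoacetyl-CoA thiolase. Its level was 104 and 123 FPKM at 22 °C and 141 and 130 FPKM at 4 °C. The groups did not overlap, though by a small margin. The difference was 0.25 (SE 0.24, limma adjusted p = 0.562). With the muscle marker score as a covariate it was 1.22 (SE 0.61, limma adjusted p = 0.373). It too was negative under the 4 other scalings, between -0.28 and -0.01. For scale, mRNA genes averaging 1 FPKM or more had a median difference of 0.21 as deposited, which lay between -0.13 and -0.04 under those scalings.

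The second comparison asked how the levels differed after 28 weeks of HFD. None of the 5 genes passed the threshold, and none had an unadjusted limma p under 0.05. Over the 17543 genes tested 0.0684% passed the threshold, 0.0855% had an adjusted p under 0.05 and 14.4% had an unadjusted p under 0.05. In this comparison only Bdh2 had both libraries of 1 group above both of the other, with HFD the higher. The same held for 39.9% of the genes tested, 5.8% had both HFD libraries below both NCD libraries, and 45.7% were without overlap in either direction. The median difference of mRNA genes at 1 FPKM or more was 0.29 as deposited and between -0.07 and 0.16 under the 4 other scalings.

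Slc16a1 was at 58.3 and 74.7 FPKM under NCD and 47.6 and 70.7 FPKM under HFD. The values overlapped, with a difference of -0.18 (SE 0.47, limma adjusted p = 0.893). The satellite-high libraries gave -0.64 and the satellite-low ones 0.27, so the direction was not shared between library types.

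Bdh1 was at 0.116 and 0.453 FPKM under NCD and 0.170 and 0.0353 FPKM under HFD. The values overlapped, and the difference was -0.21 (SE 0.13, limma adjusted p = 0.520). It was -0.86 with a pseudocount of 0.1, -0.40 without NCD replicate 6 and -0.02 without NCD replicate 8. About 41.5 and 128 fragments stood behind the NCD values and 51.6 and 9.67 behind the HFD values. The lower HFD library also had the lowest muscle marker score of all, 1.04, and the higher NCD library the highest of the diet groups, 6.45. Of the 11 muscle markers 10 were lower in both HFD libraries, with a median difference of -3.74, and their part in the Bdh1 values was not tested.

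Bdh2 was at 0.0667 and 0.232 FPKM under NCD and 0.364 and 0.239 FPKM under HFD. Both HFD libraries were above both NCD libraries, though HFD replicate 6 exceeded NCD replicate 8 only slightly. The difference was 0.18 (SE 0.10, limma adjusted p = 0.473), and it was -0.18 after median centring. The ratio of the group means was 2.02, which the added pseudocount of 1 flattens at so low a level, and with a pseudocount of 0.1 the difference was 0.75.

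Oxct1 was at 66.4 and 39.4 FPKM under NCD and 51.6 and 69.3 FPKM under HFD, with a difference of 0.22 (SE 0.49, limma adjusted p = 0.873). Acat1 was at 178 and 89.4 FPKM under NCD and 105 and 181 FPKM under HFD, with a difference of 0.13 (SE 0.60, limma adjusted p = 0.943). After median centring the Oxct1 difference was -0.14, and the Acat1 difference was negative under all 4 other scalings (-0.23 to -0.03). In both genes the groups overlapped, and the 2 libraries of a diet differed more than the diets did. For Acat1 the satellite-low library was the higher one in each of the 4 groups, at 123 against 104 FPKM at 22 °C, 141 against 130 at 4 °C, 178 against 89.4 under NCD and 181 against 105 under HFD. Within a library type its HFD difference was 0.24 among satellite-high and 0.02 among satellite-low libraries.

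Markers of white adipocytes and macrophages also differed between diets. Of the 5 white adipocyte markers 4 were tested, 3 were higher in both HFD libraries and 2, Lep and Nnat, passed the threshold, with a median difference of 2.26 and a summed level of 22.3 and 12.9 FPKM under NCD against 165 and 173 FPKM under HFD. All 7 macrophage markers were higher in both HFD libraries, with a median difference of 1.57 and none past the threshold, and their summed level was 109 and 38.5 FPKM under NCD against 192 and 245 FPKM under HFD. None of the 5 ketone body genes passed in this comparison, and the part of either list in their values was not tested.

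Over all 8 libraries the levels fell into 2 tiers. Acat1 was the highest with a mean of 132 FPKM, Oxct1 with 59.96 and Slc16a1 with 59.3 FPKM were alike, and Bdh1 with 1.48 and Bdh2 with 0.221 FPKM were far lower. Acat1 exceeded Oxct1 and Slc16a1 in each of the 8 libraries, whereas Oxct1 and Slc16a1 changed places between libraries. The Bdh1 mean came almost wholly from the 4 °C group, since its highest value elsewhere was 0.453 FPKM.

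The 3 protein-coding genes with the pattern most like each of the 5 were found by Pearson's r of log2(FPKM + 1) over the 8 libraries, which share group, library type and depth, and these are descriptions without a test. For Bdh1 they were Grsf1 (r = 0.979), Trp53inp1 (0.974) and Ranbp9 (0.967). Trp53inp1 was at 24.3 and 31.0 FPKM at 4 °C and between 3.05 and 6.25 FPKM in the other 6 libraries. Grsf1 was at 62.7 and 66.9 FPKM at 4 °C and between 29.2 and 32.6 FPKM elsewhere. That these genes also stood highest at 4 °C follows from their choice by likeness to Bdh1. For Slc16a1 they were St3gal5 (0.929), Zfp770 (0.924) and Ecpas (0.920), and for Bdh2 they were St6galnac2 (0.922), Atxn10 (0.920) and Islr (0.901). For Oxct1 they were Phyh (0.975), Rbm15b (0.925) and Gm11808 (0.911), and for Acat1 they were Mettl23 (0.991), Aldh16a1 (0.986) and Pih1d1 (0.983). No one of the 5 genes was among the 3 of another, though Bdh2, with a mean under 1 FPKM, could not be listed for another gene. The highest r between any pair of the 5 was 0.697, between Oxct1 and Acat1.

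A list of 19 other genes of ketone body synthesis, transport and sensing gave the setting. At 4 °C 14 of the 19 were tested, 1 passed as higher, none passed as lower and 6 had an unadjusted limma p under 0.05, a share that was 24.5% over all genes tested. Their median difference was 0.23, against 0.07 for all genes tested. Hmgcll1, Oxct2a, Oxct2b, Slc5a8 and Ffar3 fell under the filter. Under HFD 13 of the 19 were tested, Slc16a8 being the further one under the filter, and none passed. Their median was 0.05, against 0.18 for all genes tested, and 1 of the 13 had an unadjusted p under 0.05, against 14.4% over all genes tested. That gene, named after its values were seen, was Emb, which encodes a partner protein of monocarboxylate transporters (difference 0.92, limma adjusted p = 0.238). Its difference ranged from 0.51 to 1.59 over the alternatives. It passed in 2 distinct fits, without HFD replicate 2 or without NCD replicate 6, whose p-values rest on the spread of all genes together and do not measure replicate spread. With library type as a covariate its adjusted p was 0.0091 at a difference of 0.92, just under the 2-fold requirement.

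**Figure D4:**
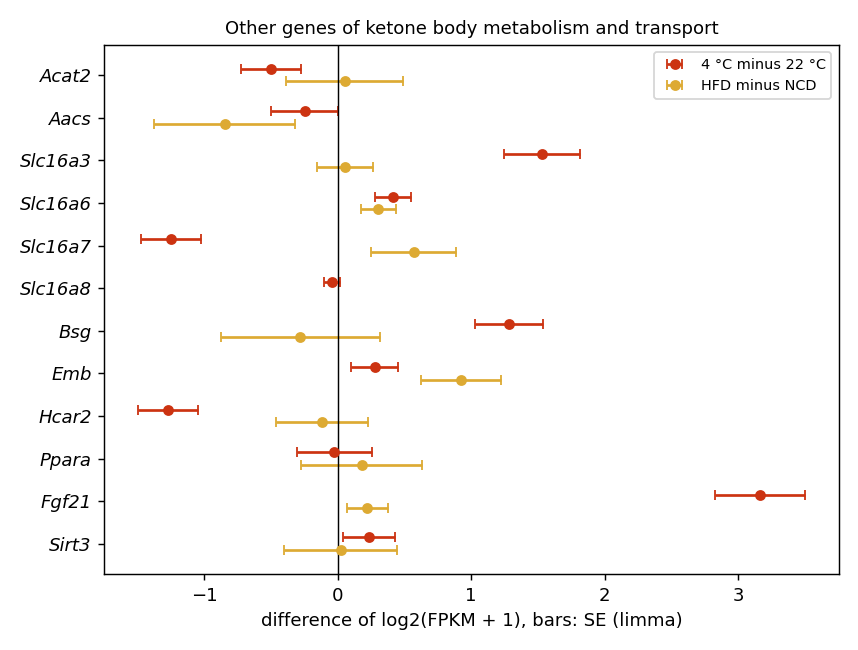
Difference of log2(FPKM + 1) (x axis) for 12 of the listed genes that were tested (y axis), 4 °C minus 22 °C in red and HFD minus NCD in yellow, with bars for the standard error from limma. Fgf21 at 4 °C (3.16) is farthest from 0, and Slc16a8 has no diet value because it was not tested there.

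Fgf21, a hormone of the fasting and cold response that is known to promote ketone body production in liver, was the listed gene that passed. It was at 0.0611 and 0.104 FPKM at 22 °C and 12.6 and 5.91 FPKM at 4 °C, with no overlap. Only 1 of the 22 °C values reached the filter of 0.1 FPKM, so Fgf21 too entered the test through its 4 °C values, and with no filter its adjusted p was 0.171. The difference was 3.16 (SE 0.34, limma adjusted p = 0.0299). Like Bdh1, Fgf21 passed under 12 of 16 alternatives, each of which kept such a filter, and failed under the same 4. Under NCD it was at 0.680 and 0.428 FPKM and under HFD at 0.799 and 0.814 FPKM, a difference of 0.22 (SE 0.15, adjusted p = 0.557).

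Other transport genes had differences over 2-fold at 4 °C in the deposited FPKM that did not pass. Slc16a3, which encodes the lactate exporter MCT4, was at 0.534 and 0.443 FPKM at 22 °C and 4.68 and 2.27 FPKM at 4 °C (difference 1.53, SE 0.28, limma adjusted p = 0.0604; 10 of 16 alternatives passed). Slc16a7, which encodes MCT2, a carrier with high affinity for its substrates, was at 6.87 and 5.63 FPKM at 22 °C and 2.50 and 1.63 FPKM at 4 °C (difference -1.25, SE 0.22, adjusted p = 0.0584; 9 of 16 passed). Bsg, basigin, the chaperone that brings MCT1 and MCT4 to the membrane, was at 146 and 144 FPKM at 22 °C and 376 and 334 FPKM at 4 °C (difference 1.28, SE 0.26, adjusted p = 0.0656; 4 of 16 passed), but its difference was under 2-fold under both rescalings (0.86) and after quantile normalization (0.69). In each of the 3 genes the groups did not overlap, which held for 58.5% of all genes tested. Hcar2, the receptor for 3-hydroxybutyrate, is named after its values were seen, and it was at 4.33 and 3.002 FPKM at 22 °C and 1.16 and 0.693 FPKM at 4 °C (difference -1.27, SE 0.23, adjusted p = 0.0582; 8 of 16 passed). With library type as a covariate Slc16a3, Slc16a7, Bsg and Hcar2 passed at the same differences (limma adjusted p = 0.0322, 0.0426, 0.0385 and 0.0433). With the muscle marker score as a covariate they did not pass. Their differences were then 1.07, -1.18, 1.71 and -0.86, in that order. Under HFD the differences were 0.05 for Slc16a3, 0.57 for Slc16a7, -0.28 for Bsg and -0.12 for Hcar2. Their limma adjusted p-values were 0.931, 0.476, 0.865 and 0.903. The sign for Hcar2 turned, to positive, when NCD replicate 6 (0.40) or HFD replicate 2 (0.097) was left out.

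Acat2, the cytosolic thiolase, was at 33.2 and 43.8 FPKM at 22 °C and 26.1 and 27.2 FPKM at 4 °C, lower in both cold libraries (difference -0.50, limma adjusted p = 0.248). Aacs, which activates acetoacetate in the cytosol for lipid synthesis, was at 29.6 and 42.8 FPKM at 22 °C and 28.9 and 30.8 FPKM at 4 °C (difference -0.25, adjusted p = 0.588). Under HFD the differences were 0.05 for Acat2 (adjusted p = 0.9705) and -0.85 for Aacs (adjusted p = 0.516), where Aacs was at 28.9 and 9.73 FPKM under NCD and 7.58 and 10.5 FPKM under HFD. That Aacs difference was -0.11 without NCD replicate 6, -1.59 without NCD replicate 8 and -2.01 with the muscle marker score as a covariate. Ppara, the fatty acid activated receptor that drives ketogenic genes in liver, ranged from 33.9 to 68.5 FPKM over the 8 libraries, with differences of -0.03 at 4 °C (adjusted p = 0.965) and 0.18 under HFD (adjusted p = 0.890). Sirt3, a mitochondrial deacetylase with ketone body enzymes among its substrates, ranged from 14.9 to 25.9 FPKM, with differences of 0.23 (adjusted p = 0.508) and 0.02 (adjusted p = 0.988).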

How the data were processed

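RNA from 8 BAT samples was depleted of rRNA and made into directional libraries. The authors mapped reads to GRCm38 with TopHat2 2.0.10 and deposited FPKM per gene from Cufflinks (2.2.1 in the submitters' processing notes, where GRCm38.p5 is named). STAR is also listed there, and its role is not given in the sources used here. No column of samples outside the series was met. The 5 genes and all lists were chosen with earlier results of these data known.

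Low FPKM of single-exon genes were whole multiples, within 0.1 fragment, of the value of 1 fragment in 96.9% to 98.3% of 1604 to 3578 values a library, which implies 89200000 to 124100000 fragments. No counts were used: the study's count test was replaced by limma 3.58.1 in R 4.3.3 (two-sided, trend) on log2(FPKM + 1) over the 4 libraries of a comparison. Genes needed at least 0.1 FPKM in at least 2 libraries; X, Y and mitochondrial genes were left out, and p-values were adjusted over every gene tested (Benjamini-Hochberg). A gene passed at an adjusted p under 0.05 and 2-fold. Gene positions came from GENCODE M21, with 49109 of 49452 identifiers matched, and sequences from RefSeq (GRCm38.p6). All 5 genes were named. Genes of the list of 19 were named if they passed or had a mean of at least 10 FPKM over the 8 libraries, plus Slc16a3, Slc16a7 and Bsg, and further genes are marked; the list's counts and medians also cover genes that are not reported singly here. Like genes were the 3 with the highest r among protein-coding genes of at least 1 FPKM.

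On simulated data the cold fit recovered 21 of 50 genes changed by 1 on the log2 scale and 50 of 50 changed by 2. The diet fit recovered 5 and 36 of 50. The changed genes were drawn only from genes at higher levels than Bdh1, Bdh2 or Fgf21. The simulated noise held no effect of library type or muscle content. These shares therefore do not give the recovery for genes at low levels. Alternatives were another pseudocount (0.1), filter, scaling, gene set and covariate, all 8 libraries in 1 fit, and each library left out.

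Other marker lists were described by their median differences. At 4 °C these were 0.13 for brown adipocyte (7 genes), 0.38 for adipocyte (6), -0.76 for white adipocyte (4 of 5 tested), 0.28 for macrophage (7), 0.43 for endothelial (6) and -0.11 for erythroid genes (4 of 5). Under HFD they were -0.14, 0.28, 2.26, 1.57, 0.64 and 0.65. Hoxc9 and the X-linked Alas2 were at 0 in some libraries.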

Additional observations from a re-analysis of the deposited data

How the results depend on the processing

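Libraries could not be paired by replicate number, because the temperature groups share none and the diet groups share only number 6. Each group held 1 library of each type, and library type was fitted as a covariate. In the cold comparison, Bdh1 kept its direction under all 16 alternatives and Slc16a1 under all 16, though its difference of 0.99 fell to between 0.46 and 0.73 under the 4 other scalings and lay between 0.65 and 1.33 with 1 library left out. Depth limits Bdh1 at 22 °C and Bdh2, which rest on 132 fragments or fewer a library. The causes of the changes below were not tested. Values are differences of log2(FPKM + 1) or counts past the threshold by limma.

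Of the 5 genes at 4 °C, 1 passed, and 0 passed (0 also at an adjusted p under 0.05) with the muscle score covariate, where 2 had an unadjusted p under 0.05, and with no filter, where again 2 had. With library type as a covariate 2 had an adjusted p under 0.05. Without each library in turn, the number whose groups did not overlap was 3 to 5. There 1 library stood against 2, where any gene is less likely to overlap, and the share over all genes was not counted. Of the listed pathway genes, 1 passed at 4 °C against 5 with X, Y and mitochondrial genes kept, 3 with all 8 libraries, 5 with library type as a covariate in 4 or in 8 libraries, 4 with the 1 FPKM filter, 5 after median centring, 2 with the 0.1 pseudocount, 4 after quantile normalization and 4 under each rescaling, and 0 with the muscle score or no filter (4 and 6 at an unadjusted p under 0.05); leaving out a library gave 0 to 1. Of all genes, 252 passed at 4 °C against 920 with X, Y and mitochondrial genes kept, 439 with all 8 libraries, 869 with 8 libraries and library type, 859 with library type, 529 with the 1 FPKM filter, 751 after median centring, 474 with the 0.1 pseudocount, 507 after quantile normalization, 582 when rescaled to the sum of autosomal mRNAs and lncRNAs and 533 when rescaled with Ucp1, rRNA and mitochondrial genes left out; 0 passed with the muscle score (2648 at an unadjusted p under 0.05) or no filter (4691), and 0 to 246 without 1 library. The 0 came without 4 °C replicate 2 (3739 at an unadjusted p under 0.05) or 11 (5726), and 122 without 22 °C replicate 7.

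At 4 °C directions turned after median centring for Oxct1 (-0.14), Acat1 (-0.0098) and Sirt3 (-0.034), after quantile normalization for Oxct1 (-0.41), Acat1 (-0.28) and Sirt3 (-0.20), and after both rescalings for Oxct1 (-0.29 in each), Acat1 (-0.16 in each) and Sirt3 (-0.17 in each). With the muscle score Acat2 (0.088), Aacs (0.90) and Ppara (0.092) turned. The same setting gave 1.22 for Acat1, 0.82 for Sirt3, 0.55 for Oxct1 and -0.37 for Bdh2, without a turn. Under the 4 other scalings Acat2 lay between -0.99 and -0.76, Aacs between -0.72 and -0.51 and Ppara between -0.56 and -0.29. Leaving out 1 library gave ranges of -0.51 to 0.012 for Aacs, -0.20 to 0.033 for Bdh2, -0.060 to 0.31 for Oxct1 and -0.35 to 0.30 for Ppara.

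Under HFD no setting made any of the 5 genes pass. Leaving out NCD replicate 6 is also the fit of libraries whose labels start alike. It gave differences of -0.40 for Bdh1, 0.40 for Hcar2 and -0.14 for Slc16a3. The spread was set almost wholly by all genes together in each HFD fit of 3 libraries and in the cold fit rescaled without Ucp1. The p-values of those fits do not measure replicate spread. Of all genes, 12 passed against 75 with all 8 libraries, 439 with 8 libraries and library type, 1 with the muscle score, 24 with the 1 FPKM filter, 745 with library type, 31 after median centring and 0 with X, Y and mitochondrial genes kept (2533 at an unadjusted p under 0.05), no filter (2490), quantile normalization (2112) or the rescalings (2340 and 2322). Without overlap were 0 of the 5 with the 1 FPKM filter and when rescaled to the sum of autosomal genes, and 2 after quantile normalization. Leaving out 1 library gave 1 to 5 of the 5 without overlap. There 1 library stood against 2, where any gene is less likely to overlap, and the share over all genes was not counted.

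Under HFD directions turned with the muscle score for Oxct1 (-0.21), Acat1 (-0.85), Acat2 (-0.55) and Sirt3 (-0.57), after median centring for Bdh2 (-0.18), Oxct1 (-0.14), Acat1 (-0.23), Fgf21 (-0.14), Slc16a3 (-0.31), Acat2 (-0.31), Ppara (-0.18) and Sirt3 (-0.34), after quantile normalization for Acat1 (-0.034), Slc16a3 (-0.20), Acat2 (-0.18) and Sirt3 (-0.22), when rescaled to the sum of autosomal genes for Acat1 (-0.037), Slc16a3 (-0.052), Acat2 (-0.10) and Sirt3 (-0.14), and when rescaled without Ucp1 for Acat1 (-0.026), Slc16a3 (-0.052), Acat2 (-0.093) and Sirt3 (-0.13). Leaving out 1 library gave -0.36 to 0.62 for Acat1, -0.41 to 0.51 for Acat2, -1.59 to -0.11 for Aacs, -0.64 to 0.40 for Hcar2, -0.40 to -0.02 for Bdh1, -0.54 to -0.02 for Bsg, 0.26 to 0.87 for Slc16a7, -0.15 to 0.59 for Oxct1, -0.36 to 0.40 for Sirt3, -0.46 to 0.098 for Slc16a1 and -0.14 to 0.25 for Slc16a3.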
